A study of Mus musculus with 12 samples.

Results

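The genes described here are 10 markers of resting (homeostatic) microglia: P2ry12, Tmem119, Selplg, Gpr34, Olfml3, Fcrls, Crybb1, Cx3cr1, Sall1 and Siglech. They were taken by symbol from a table of 54532 mouse genes, and all 10 were present and passed the filter on low values that left 17664 genes for testing. RNA was sequenced from mouse brain in 12 libraries, 3 in each of 4 groups, to ask how brain transcripts differ over time after photodynamic therapy (PDT) with 5-aminolevulinic acid (5-ALA), a heme precursor that cells turn into a light-activated pigment. Treated mice were given 5-ALA at 20 mg/kg, were irradiated 30 min later with 635 nm laser light at 20 J/cm2, and were sampled 1.5 h, 12 h or 48 h afterwards. The control libraries carry PBS in their titles and are labelled untreated, with no word on whether these mice had an injection or light. All groups were perfused with 0.9% NaCl before the brain was taken. The labels give no genetic alteration, age, sex or brain region, and they name both BALB/c and C57BL/6 for every library. Nothing in them ties a library to an animal of its own, so p-values measure only the spread between these libraries, which may be technical.

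Microglia are the resident macrophages of the brain parenchyma. In the undisturbed brain they hold a characteristic set of transcripts that depends on TGF-beta signalling, on CSF1 receptor signalling and on transcription factors such as SALL1 and PU.1 (Spi1), and this set is known to be lowered in microglia that respond to injury. P2Y12, the protein of P2ry12, is the receptor by which their processes sense ADP and ATP from damaged cells. Because whole brain tissue was sequenced, a lower value can come from fewer microglia or from less RNA per microglial cell, and these cannot be told apart here.

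All 10 genes were measured in every library. Between 14 and 1412 reads per gene and library stood behind the values, out of 15348579 to 17444654 reads per library recovered from the deposited values. The low values at 12 h rest on few reads, for example 26, 28 and 29 for P2ry12 and 14, 15 and 14 for Crybb1. A pair of the 1.5 h libraries, replicates 1 and 3, stood apart in the relation of expression to gene length. Their log2 deviation from the mean of all 12 libraries changed by -0.104 and -0.06 per doubling of length. The range in the other 10 libraries was -0.009 to 0.041. The 1.5 h changes from control quoted for P2ry12, Cx3cr1, Sall1 and Crybb1, and the counts of members, are therefore given with and without replicates 1 and 3. Leaving both out keeps a single 1.5 h library, replicate 2, which is then assumed to vary like the libraries of the other groups, so calls against it have no replicate check at 1.5 h. Values are FPKM (fragments scaled by gene length and by a factor for each library), and the length scaling allows genes of a library to be compared. The factor did not follow the recovered reads alone. P2ry12 had 468 reads in both control replicate 4 and 1.5 h replicate 1, out of 16306254 and 15709617, but measured 10.5 and 15.1 FPKM. How the factor was set is not given in the sources used here, and its part in the changes between groups was not tested. Changes are log2 changes from limma on log2(FPKM + 1), with their standard error (SE), and a gene is said to have risen or fallen only below a false discovery rate (FDR) of 0.05 over all 17664 genes.

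Positions are on GRCm38. P2ry12 (ENSMUSG00000036353, chr3:59216272-59262871, minus strand) is a protein-coding gene that lies inside Med12l, a gene of the opposite strand, and shares 9 exonic bases with it. Gpr34 (chrX:13632089-13640858, plus strand) likewise lies inside Cask, of the opposite strand, and shares 0 exonic bases with it. Whether reads were counted by strand is not given in the sources used here, so the host genes were examined as well. Med12l measured 2.66 ± 0.246 FPKM in controls and 2.01 ± 0.202 at 12 h (SD, n = 3; log2 change -0.28, adjusted p = 0.34), and Cask measured 7.5 ± 0.363 and 7.43 ± 0.703 (log2 change -0.02, adjusted p = 0.97). Cx3cr1 (chr9:119901616-120069879, minus strand) overlaps 9 other genes in the annotation and shares 78 exonic bases with 1 of them, the antisense RNA Gm33858. Tmem119 (chr5:113793729-113800516) and Selplg (chr5:113818536-113832644) are neighbours on the minus strand, 18019 bases apart, and Crybb1 (chr5:112255815-112269585, plus strand) lies on the same chromosome. Olfml3 (chr3:103722222-103738001) and Fcrls (chr3:87250758-87263738) are on the minus strand of chromosome 3, Sall1 (chr8:89027235-89044162) is on the minus strand, and Siglech (chr7:55768178-55778925) is on the plus strand.

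The sequences just upstream of 4 of these genes are printed because each stands for a different course over time, described below: P2ry12 fell at 12 h and was higher again at 48 h, Olfml3 rose far above control at 48 h, Siglech fell at 12 h with no rise past the threshold from 12 h to 48 h, and Crybb1 was highest at 1.5 h. They come from RefSeq on GRCm38.p6 and end at the base before the transcription start or, for Siglech and Crybb1, before the annotated gene start. The P2ry12 sequence belongs to a RefSeq start upstream of the annotated gene, so that its far end lies 364 bases from the gene start. Capitals mark matches, on either strand, to the ETS core AGGAAG (the family of PU.1) or to the TATA box TATAAA.
P2ry12, chr3:59262986-59263235, minus strand: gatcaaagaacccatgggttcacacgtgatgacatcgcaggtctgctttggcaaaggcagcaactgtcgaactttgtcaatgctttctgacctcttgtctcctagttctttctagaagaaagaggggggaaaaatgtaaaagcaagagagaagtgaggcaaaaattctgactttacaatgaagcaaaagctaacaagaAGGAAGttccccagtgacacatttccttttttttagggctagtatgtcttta
Olfml3, chr3:103738002-103738251, minus strand: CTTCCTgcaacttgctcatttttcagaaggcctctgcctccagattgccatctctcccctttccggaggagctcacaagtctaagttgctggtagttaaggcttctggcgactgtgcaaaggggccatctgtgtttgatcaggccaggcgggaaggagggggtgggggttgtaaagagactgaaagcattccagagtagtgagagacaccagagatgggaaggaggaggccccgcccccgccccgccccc
Siglech, chr7:55767934-55768177, plus strand: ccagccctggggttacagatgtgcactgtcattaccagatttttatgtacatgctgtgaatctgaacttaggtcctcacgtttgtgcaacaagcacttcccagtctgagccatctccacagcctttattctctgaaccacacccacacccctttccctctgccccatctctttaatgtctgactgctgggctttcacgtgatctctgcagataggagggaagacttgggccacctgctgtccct
Crybb1, chr5:112255570-112255814, plus strand: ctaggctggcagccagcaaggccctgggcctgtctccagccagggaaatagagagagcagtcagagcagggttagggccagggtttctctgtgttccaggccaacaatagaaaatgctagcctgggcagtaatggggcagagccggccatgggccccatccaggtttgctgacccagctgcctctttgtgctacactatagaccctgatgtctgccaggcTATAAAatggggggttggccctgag
P2ry12 and Olfml3 each hold 1 match to the ETS core, Crybb1 holds 1 match to the TATA box, and Siglech holds none. RefSeq gave 9 windows of 250 bases upstream of its own starts for 7 of the 10 genes, with more than 1 for Sall1. It had no entry for Tmem119, Selplg and Gpr34. By the annotated positions, the Cx3cr1 window, most of the Fcrls window and some Sall1 windows, among them the one with AGGAAG, lie inside the gene. Of the 9 windows, 4 held AGGAAG, which occurs in 29.5% of 32851 promoter windows of the same length. A TATAAA was present in 2 windows, Fcrls and Crybb1 (12.4% of all promoters), the MEF2 motif (CTA, any 4 bases, TAG) in 1, Cx3cr1 (3.2%), and the AP-1 motif TGANTCA in 0 (6.7%). Fcrls held 4 matches to the ETS core in a single window. In the printed sequences no match overlapped another motif, and a match is a description of the letters only.

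Among the receptors, P2ry12 fell furthest. Its values were 14, 13.5 and 10.5 FPKM in control replicates 1, 2 and 4, and 15.1, 7.91 and 10.1 in 1.5 h replicates 1, 2 and 3. They were 0.679, 0.681 and 0.715 in 12 h replicates 1 and 2 and the unnumbered 12 h library, and 6.08, 10 and 7.47 in 48 h replicates 1, 3 and 4. Every 12 h library lay below every other library, while the control and 1.5 h libraries overlapped. The mean at 12 h, 0.692 ± 0.0204 FPKM (SD, n = 3), was 5.47% of the control mean of 12.7 ± 1.87, or 18.3-fold lower. On the log2(FPKM + 1) scale, which understates such a change, the difference from control was -3.00 ± 0.22 (SE; adjusted p = 9.7e-06). From 12 h to 48 h P2ry12 rose by 2.36 ± 0.22 (adjusted p = 7.6e-05). At 48 h its mean was 62.1% of the control mean and its 3 libraries lay below the 3 controls, but this difference of -0.64 ± 0.22 did not pass the threshold (adjusted p = 0.081). In order of mean level the groups were control, 1.5 h (11.1 ± 3.70), 48 h (7.86 ± 2.0) and 12 h. The neighbours control and 1.5 h (log2 difference -0.21, adjusted p = 0.51) and 1.5 h and 48 h (-0.43, adjusted p = 0.19) did not differ beyond their spread. In 1.5 h replicate 2 alone, P2ry12 differed from the control mean by -0.61.

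Gpr34, a receptor for lysophosphatidylserine, was also low at 12 h and had its highest values at 48 h. It measured 5.53, 5.26 and 3.53 FPKM in the controls, 7.45, 3.43 and 4.38 at 1.5 h, 0.604, 0.978 and 0.962 at 12 h, and 8.40, 9.44 and 7.64 at 48 h. The 12 h libraries lay below all others and the 48 h libraries above all others. Gpr34 fell at 12 h to 17.8% of control (log2 change -1.63 ± 0.22, adjusted p = 0.00052) and rose from 12 h to 48 h by 2.36 ± 0.22 (adjusted p = 8.9e-05). The 48 h mean was 178% of control, a log2 difference of 0.73 ± 0.22 that missed the threshold (adjusted p = 0.056).

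Cx3cr1, the receptor for the neuronal chemokine fractalkine (Cx3cl1), fell less at 12 h and rose above control at 48 h. The values were 7.75, 7.26 and 6.11 FPKM in the controls, 5.04, 6.04 and 4.30 at 1.5 h, 3.41, 3.74 and 4.27 at 12 h, and 16.7, 11.4 and 11.2 at 48 h. The 12 h libraries were all below the 1.5 h libraries, these were all below the controls, and the controls were all below the 48 h libraries. The change from control was -0.74 ± 0.17 at 12 h (adjusted p = 0.0096) and 0.80 ± 0.17 at 48 h (adjusted p = 0.01), the latter a mean of 186% of control. The difference between 1.5 h and control, -0.40 ± 0.17, did not pass the threshold (adjusted p = 0.14). In 1.5 h replicate 2 alone, Cx3cr1 differed from the control mean by -0.19.

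Tmem119, a membrane protein used to tell microglia from blood-derived macrophages, and Selplg, the P-selectin ligand PSGL-1 that other leukocytes also carry, both fell at 12 h and rose again by 48 h. Tmem119 measured 9.18, 10.9 and 9.44 FPKM in the controls, 19.0, 8.97 and 12.3 at 1.5 h, 1.32, 1.71 and 1.98 at 12 h, and 10.1, 16.5 and 13.1 at 48 h. Selplg measured 5.60, 5.81 and 5.5 in the controls, 11.7, 4.50 and 7.65 at 1.5 h, 0.70, 0.87 and 0.75 at 12 h, and 3.72, 5.64 and 3.43 at 48 h. For both, the 12 h libraries lay apart below all others, and the 48 h libraries overlapped with the controls. Tmem119 fell at 12 h to 17% of control (-2.02 ± 0.24, adjusted p = 0.0002) and Selplg to 13.7% (-1.90 ± 0.25, adjusted p = 0.00041). From 12 h to 48 h Tmem119 rose by 2.40 ± 0.24 (adjusted p = 0.00011) and Selplg by 1.55 ± 0.25 (adjusted p = 0.0021). Against control at 48 h, Tmem119 differed by 0.37 ± 0.24 (adjusted p = 0.36) and Selplg by -0.36 ± 0.25 (adjusted p = 0.41).

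Siglech, a sialic acid-binding receptor of microglia that plasmacytoid dendritic cells also express, was still low in 2 of 3 libraries at 48 h. Its values were 3.88, 3.47 and 2.59 FPKM in the controls, 5.45, 3.40 and 3.91 at 1.5 h, 1.28, 1.46 and 1.32 at 12 h, and 1.37, 2.89 and 1.34 at 48 h. Replicates 1 and 4 of the 48 h group were as low as the 12 h libraries, and replicate 3 lay within the control range. Siglech fell at 12 h to 40.9% of control (-0.86 ± 0.21, adjusted p = 0.014). Its difference between 48 h and 12 h was 0.24 ± 0.21 (adjusted p = 0.48), and that between 48 h and control was -0.62 ± 0.21 (adjusted p = 0.083). Without 48 h replicate 3, the difference at 48 h passed the threshold (-0.86, adjusted p = 0.017).

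Fcrls, an Fc receptor-like scavenger receptor, and Olfml3, a secreted olfactomedin-like protein, were the members with the largest rises at 48 h. Fcrls measured 1.93, 1.53 and 1.96 FPKM in the controls, 7.20, 1.89 and 4.32 at 1.5 h, 3.99, 3.40 and 4.2 at 12 h, and 14, 17.4 and 12.5 at 48 h. It was the single member above control at 12 h, with all 3 libraries above all 3 controls, but the change of 0.79 ± 0.29 did not pass the threshold (adjusted p = 0.079). Fcrls passed when only the 2 groups were fitted (adjusted p = 0.0017), so that 10 of 10 members then passed, 9 lower and 1 higher. In that fit 18.9% of all tested genes fell and 22.3% rose. At 48 h Fcrls rose to 8.1 times the control mean (2.47 ± 0.29, adjusted p = 0.00032). Olfml3 measured 1.43, 1.66 and 1.62 in the controls, 2.71, 1.85 and 2.20 at 1.5 h, 0.949, 0.784 and 1.10 at 12 h, and 9.30, 10.8 and 9.87 at 48 h. Each group of Olfml3 values was apart from each other group. Olfml3 fell slightly at 12 h (-0.40 ± 0.12, adjusted p = 0.038) and at 48 h rose to 6.37 times the control mean (2.10 ± 0.12, adjusted p = 4.2e-06).

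Sall1, the zinc-finger transcription factor that maintains microglial identity, was lowest at the 2 earlier times. It measured 3.73, 3.36 and 4.39 FPKM in the controls, 1.92, 2.68 and 1.56 at 1.5 h, 2.64, 1.86 and 2.28 at 12 h, and 5.15, 3.56 and 4.2 at 48 h. All 1.5 h and 12 h libraries lay below all controls, and the 48 h libraries overlapped with the controls. Sall1 fell at 12 h to 59% of control (-0.57 ± 0.17, adjusted p = 0.032), and it rose from 12 h to 48 h by 0.70 ± 0.17 (adjusted p = 0.016). Its difference at 1.5 h of -0.67 ± 0.17 missed the threshold (adjusted p = 0.085). In 1.5 h replicate 2 alone, Sall1 differed from the control mean by -0.39.

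Crybb1, a crystallin known from the lens that is also transcribed in young microglia, had a course of its own. Its values were 2.52, 3.91 and 2.5 FPKM in the controls, 19.1, 7.34 and 12.8 at 1.5 h, 0.945, 0.943 and 0.893 at 12 h, and 1.30, 2.22 and 1.84 at 48 h. The 1.5 h libraries lay above all others, and both later groups lay below all controls. Crybb1 rose at 1.5 h to 4.39 times the control mean (1.75 ± 0.27, adjusted p = 0.021) and fell at 12 h to 31.1% of it (-1.03 ± 0.27, adjusted p = 0.02). At 48 h it stood at 60% of control, which did not pass the threshold (-0.51 ± 0.27, adjusted p = 0.26). With 1.5 h replicates 1 and 3 left out, the difference between the 1 remaining library and the controls was 1.09 and was not past the threshold (adjusted p = 0.19).

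**Figure D1:**
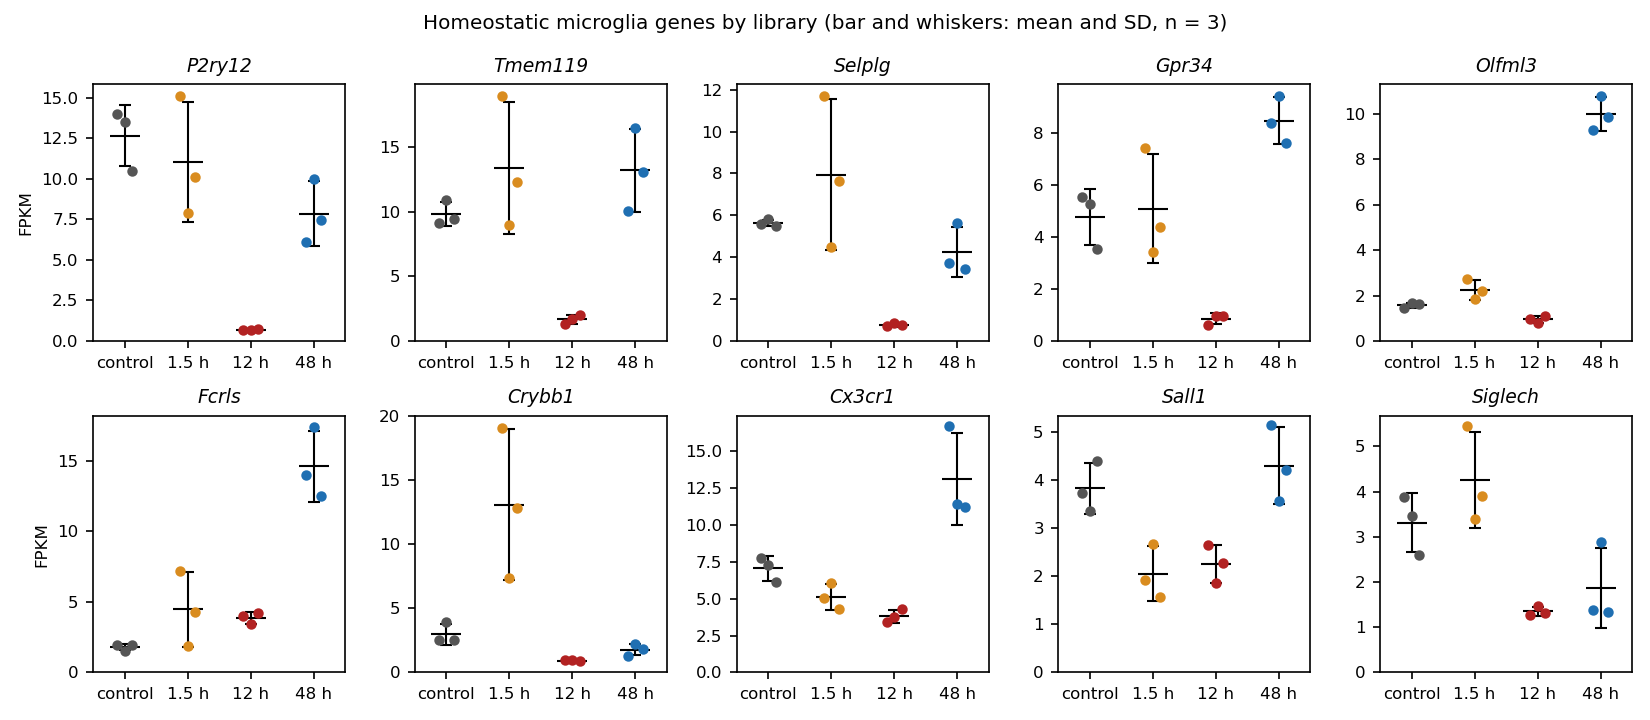
FPKM (vertical axes, each starting at 0) of the 10 homeostatic microglia genes in control libraries and at 1.5 h, 12 h and 48 h after PDT. Points are libraries, and the bar and whiskers are the mean and SD of 3. P2ry12, Tmem119, Selplg and Gpr34 sit lowest at 12 h, Fcrls and Olfml3 highest at 48 h, and Crybb1 highest at 1.5 h.

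Counted over the 10 genes, 12 h stood out. At 12 h against control 9 of 10 genes fell and 0 rose, where 7.9% of all tested genes fell and 13.3% rose. The median change of the 10 was -0.94 on the log2 scale, against 0 for all tested genes. In all 10 the 12 h and control libraries did not overlap. The share of all tested genes without such overlap was not taken, so this count has no background beside it. Falls of P2ry12, Tmem119, Selplg, Gpr34 and Cx3cr1 passed the threshold under all 15 alternative settings, with P2ry12 between -4.00 and -2.93. The other 4 calls were not as firm: 5 genes passed without control replicate 2, and 6 passed without control replicate 1, 12 h replicate 2 or the unnumbered 12 h library. Fewer of all tested genes fell in these fits as well: 3.64% without control replicate 2 and 3.88% without control replicate 1. The share was 3.75% without 12 h replicate 2 and 4.13% without the unnumbered 12 h library. Olfml3 lost its call whichever control or 12 h library was left out (adjusted p up to 0.15), Sall1 without any of these but 12 h replicate 1 (up to 0.13), Crybb1 without control replicate 2 or any 12 h library (up to 0.084), and Siglech without control replicate 1 or 2 (up to 0.063).

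At 1.5 h against control 0 of 10 fell and 1 rose, Crybb1, where 0.136% of all tested genes fell and 0.419% rose. This count depended on single libraries. It was 0 without any 1 of the 3 controls or without 1.5 h replicate 3, and 7 without 1.5 h replicate 2, when 5 rose (Tmem119, Selplg, Olfml3, Fcrls and Crybb1) and 2 fell (Cx3cr1 and Sall1), where 26.1% of all genes tested in that fit rose and 20% fell. Replicate 2 was closer to the control mean than both other 1.5 h libraries for every member but P2ry12 and Gpr34. For Fcrls it measured 1.89 FPKM against 1.81 ± 0.241 in the controls, where replicates 1 and 3 measured 7.20 and 4.32.

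At 48 h against control 0 of 10 fell and 3 rose, Fcrls, Olfml3 and Cx3cr1, where 5.01% of all tested genes fell and 7.5% rose. All 3 rises passed under all 15 alternatives. Of the other 7, Gpr34, Tmem119 and Sall1 had means above control and P2ry12, Selplg, Crybb1 and Siglech below it, and the median of the 10 was 0.25 against 0 for all genes. With the 1.5 h replicates 1 and 3 left out of the fit, 7 passed, where 12.9% of all genes tested in that fit fell and 14.2% rose: Gpr34 rose (0.73, adjusted p = 0.0086) and P2ry12 (-0.64, adjusted p = 0.018), Crybb1 (-0.51, adjusted p = 0.044) and Siglech (-0.62, adjusted p = 0.046) fell.

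Between the treated groups, 7 of 10 fell and 0 rose from 1.5 h to 12 h, where 16.3% of tested genes fell and 16.9% rose. The 3 that did not pass were Fcrls, Cx3cr1 and Sall1. From 12 h to 48 h 0 fell and 8 rose, with a median of 1.61, where 9.73% of tested genes fell and 5.88% rose. Crybb1 (0.52, adjusted p = 0.22) and Siglech were the 2 that did not pass. From 1.5 h to 48 h 2 fell, Crybb1 (-2.26, adjusted p = 0.00035) and Siglech (-0.90, adjusted p = 0.015), and 4 rose, Olfml3, Fcrls, Cx3cr1 and Sall1, where 8.87% of tested genes fell and 8.91% rose. Siglech lost this last call without 1.5 h replicate 1 (adjusted p = 0.051) or without 48 h replicate 1 or 4 (0.062 each). Without 1.5 h replicate 2, P2ry12 (-0.62, adjusted p = 0.03) and Selplg (-1.01, adjusted p = 0.002) also fell, where 25.1% of all genes tested in that fit fell and 19.6% rose. Gpr34 passed without 1.5 h replicate 1 (0.96, adjusted p = 0.0078). Against the 1 library that remained with 1.5 h replicates 1 and 3 left out, 6 fell and 1 rose from 1.5 h to 12 h (all genes: 5.81% fell, 8.15% rose), with Siglech no longer past the threshold (adjusted p = 0.062) and Fcrls higher at 12 h (0.75, adjusted p = 0.03). From 1.5 h to 48 h 1 then fell and 4 rose (all genes: 7.77% fell, 7.4% rose), with Siglech (adjusted p = 0.14) and Sall1 (0.11) no longer past the threshold and Gpr34 past it (1.10, adjusted p = 0.012). From 12 h to 48 h, Sall1 lost its call without 12 h replicate 2 (adjusted p = 0.078) or 48 h replicate 1 (0.051).

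**Figure D2:**
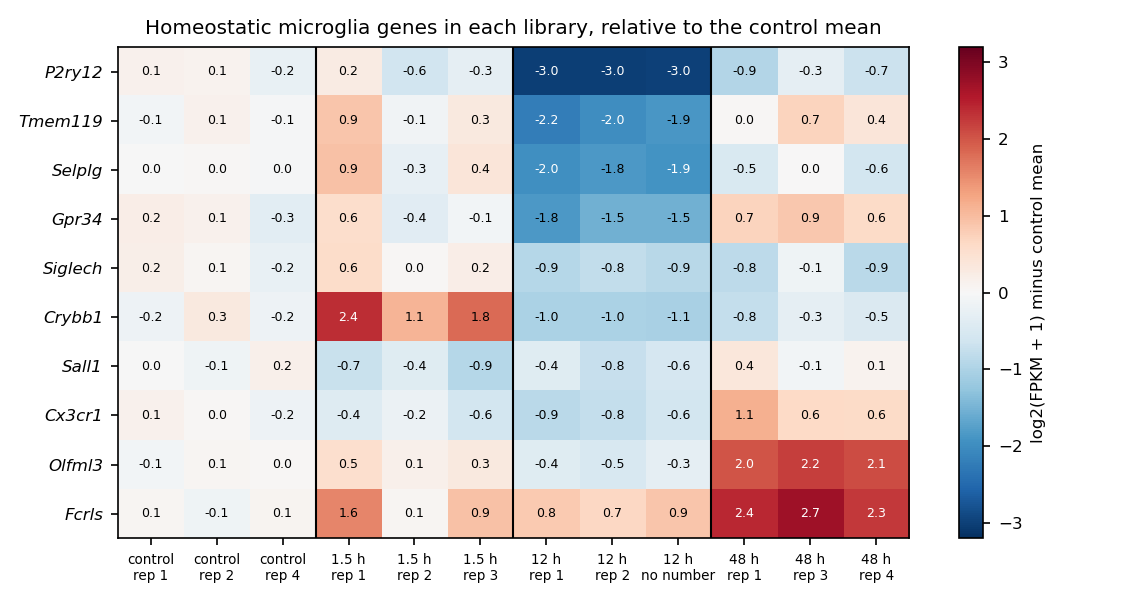
Log2(FPKM + 1) minus the control mean (colour, with the value in each cell) for the 10 genes (rows) in the 12 libraries (columns, by group and replicate). The 3 libraries at 12 h are below the control mean in 9 rows and above it for Fcrls, and at 1.5 h replicate 2 is closer to the controls than replicates 1 and 3 in every row but P2ry12 and Gpr34.

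Genes expressed widely in myeloid cells or in macrophages were counted beside the homeostatic genes, and 27 of 28 listed were tested. They are called pan myeloid genes here and include Aif1, Itgam, Tyrobp and the C1q chains, which not all myeloid cells make. At 12 h 0 of 27 fell and 12 rose, with a median of 0.55, led by the lysosomal protein Cd68 (1.92 ± 0.27, adjusted p = 0.00055) and the tetraspanin Cd53 (1.30 ± 0.22, adjusted p = 0.0018). The number that rose was 6 without control replicate 2, 12 h replicate 2 or the unnumbered 12 h library, and 7 without control replicate 1 or 4. In these fits 8.39% to 10% of all tested genes rose, against 13.3% in the fit reported. Aif1 (IBA1, the usual microglial stain) differed from control by -0.30 ± 0.36 (adjusted p = 0.62) and C1qa by 0.63 ± 0.33 (adjusted p = 0.21). At 48 h 25 of 27 rose and 0 fell, with a median of 1.50, where 7.5% of all tested genes rose and 5.01% fell. Aif1 rose by 1.36 ± 0.36 (adjusted p = 0.03), C1qa by 2.55 ± 0.33 (adjusted p = 0.00059) and the integrin chain Itgb2 by 1.69 ± 0.17 (adjusted p = 9e-05).

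The 10 genes were set library by library against the median of the pan myeloid genes, with both centred on the controls. Below it lay 9 of the 10 in each 12 h library and 8 of 10 in each 48 h library. The numbers were 8, 6 and 8 in 1.5 h replicates 1, 2 and 3, and 6, 2 and 5 in control replicates 1, 2 and 4. The pan myeloid median was 0.55 at 12 h and 1.50 at 48 h, where that of all tested genes was 0. The share of all genes below the pan myeloid median was not taken. At 12 h the mean gap was -3.61 for P2ry12, -2.63 for Tmem119, -2.51 for Selplg, -2.24 for Gpr34 and 0.19 for Fcrls. At 48 h it was -2.10 for P2ry12, -2.08 for Siglech, -1.97 for Crybb1 and -1.82 for Selplg, and the 2 genes above the pan myeloid median were Fcrls (1.0) and Olfml3 (0.63). These gaps are descriptions and carry no test.

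**Figure D3:**
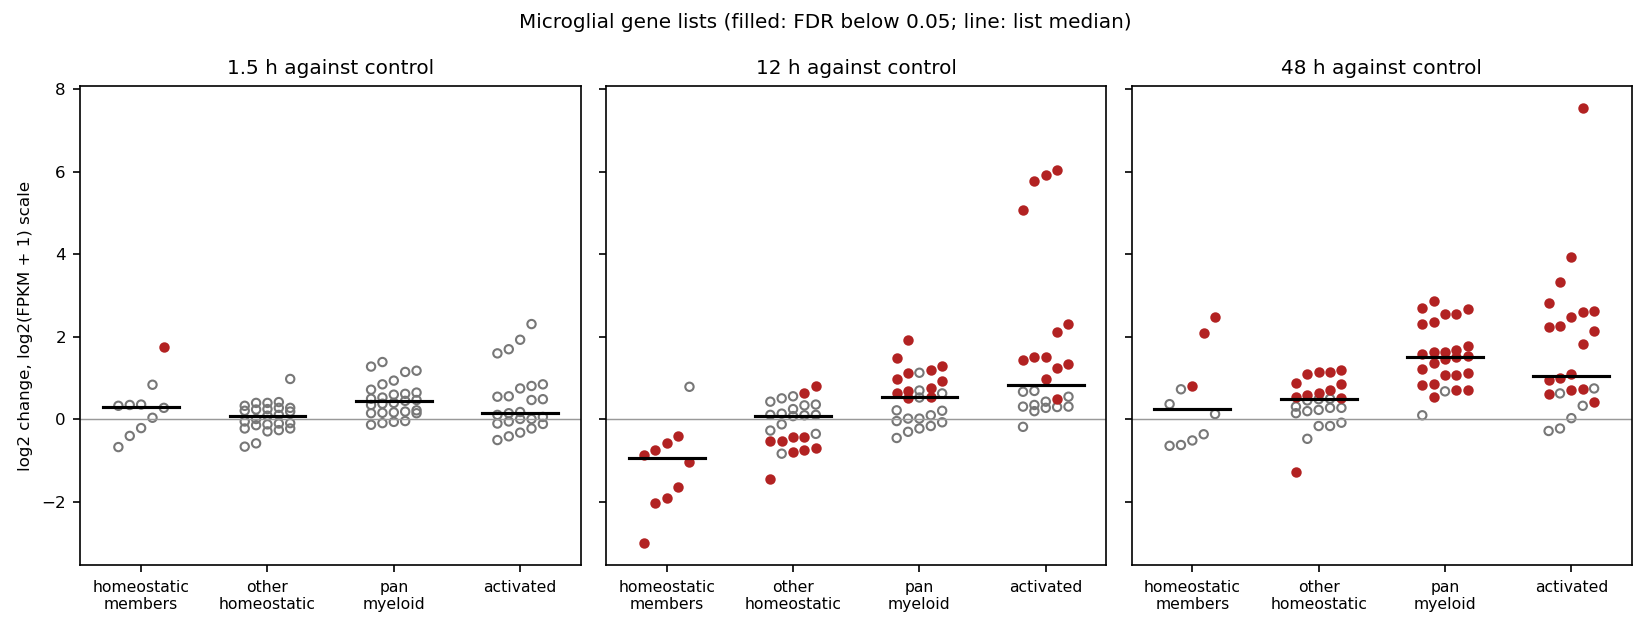
Log2 change against control (vertical axis, log2(FPKM + 1) scale) at 1.5 h, 12 h and 48 h for the tested genes of 4 lists: the 10 homeostatic genes, 25 other homeostatic genes, 27 pan myeloid genes and 24 activated microglia genes. Filled points passed the FDR of 0.05 and lines are list medians, which at 12 h are -0.94, 0.08, 0.55 and 0.84.

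Other genes held to be high in homeostatic microglia moved in both directions. Of 28 listed, 25 were tested. At 12 h 8 fell and 2 rose, with a median of 0.08, where 7.9% of all tested genes fell and 13.3% rose. Among those that fell were P2ry13, an ADP receptor gene next to P2ry12 (3.32 ± 1.20 FPKM in controls, 0.549 ± 0.139 at 12 h; -1.44 ± 0.23, adjusted p = 0.0013), and Csf1r, the receptor on which microglia depend for survival (18.4 ± 0.273 and 10.7 ± 0.276; -0.73 ± 0.12, adjusted p = 0.0014). Adgrg1 (GPR56) rose by 0.81 ± 0.17 (adjusted p = 0.0072). At 48 h 11 of 25 rose and 1 fell, with a median of 0.49, where 7.5% of all tested genes rose and 5.01% fell. Csf1r rose by 0.55 ± 0.12 (adjusted p = 0.011) and the integrin chain Itgb5 by 1.14 ± 0.12 (adjusted p = 0.00011). Mef2c, a transcription factor that neurons also express, fell by 1.27 on the log2 scale (adjusted p = 0.042).

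Of genes of activated and disease-associated microglia, all 24 listed were tested. At 1.5 h 0 passed in either direction, at 12 h 13 rose and 0 fell (median 0.84), while at 48 h 18 rose and 0 fell (median 1.05). Of all tested genes, 13.3% rose and 7.9% fell at 12 h, and 7.5% rose and 5.01% fell at 48 h. Spp1, the secreted phosphoprotein osteopontin, rose by 5.77 ± 0.51 at 12 h and 7.55 ± 0.51 at 48 h, and Cd14, the co-receptor for lipopolysaccharide, rose by 5.08 ± 0.35 at 12 h. Tlr2 rose by 2.48 ± 0.20 at 48 h. Several of these genes, Spp1 and Cd14 among them, are also transcribed by other cells of injured tissue.

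Markers of other immune cells also differed between the groups. Of 12 markers of border-associated macrophages, 2 were tested, and the summed level of all 12 was 2.09 to 2.58 FPKM in controls, 2.17 to 6.78 at 1.5 h, 4.65 to 7.33 at 12 h and 5.52 to 20.7 at 48 h. Most of this sum at 48 h was Stab1, with 12.6 of 20.7, 3.45 of 5.52 and 5.56 of 7.63 FPKM in replicates 1, 3 and 4. Pf4 measured 5.48, 0.758 and 0.665 in the same libraries. Stab1 rose at 12 h (1.07 ± 0.33, adjusted p = 0.039) and at 48 h (1.96 ± 0.33). The mannose receptor Mrc1 stayed between 0.0388 and 0.888 FPKM and Cd163 between 0.0262 and 0.885 over all 12 libraries. Of 16 markers of monocytes and neutrophils, 4 were tested, and the summed level of all 16 was 1.09 to 2.03 FPKM in controls, 1.26 to 20.6 at 1.5 h, 9.3 to 26.5 at 12 h and 6.41 to 19.9 at 48 h. At 48 h most of this sum was Lcn2, with 15 of 19.9, 4.25 of 6.41 and 7.61 of 10.8 FPKM in replicates 1, 3 and 4. Of the 4, 3 rose and 1 fell at 12 h, and 1 rose and 1 fell at 48 h. Of all tested genes, 7.9% fell and 13.3% rose at 12 h, and 5.01% fell and 7.5% rose at 48 h. S100a8, a neutrophil calprotectin subunit, rose at 12 h (1.98 ± 0.45), and Lcn2, which reactive astrocytes also make, rose at both times, while the integrin chain Itga4 fell at 12 h (-0.51 ± 0.12, adjusted p = 0.011) and 48 h (-0.43 ± 0.12, adjusted p = 0.037). Ccr2, the receptor of inflammatory monocytes, was at most 0.197 FPKM and was listed at 0 in 1 library, and the neutrophil antigen Ly6g was listed at 0 in 11 of 12. Of 10 lymphocyte markers, 3 were tested, and the summed level of all 10 was 15.8 to 24.4 FPKM in controls, 22.3 to 57.6 at 1.5 h, 14.7 to 24.6 at 12 h and 7.76 to 15.4 at 48 h. Trbc2 made up most of this sum in the controls, at 1.5 h and at 48 h, for example 20.6 of 21.9 FPKM in control replicate 1. Cd3e rose at 12 h (3.0 ± 0.25), when the list median was -0.34. Trbc2 (-0.75, adjusted p = 0.17) and Cd4 (-0.34, adjusted p = 0.63) were lower at 12 h without passing the threshold. Cd3d, which was not tested, measured 0.0582 ± 0.0395 FPKM at 12 h. Cd4 fell at 48 h, by 1.48 on the log2 scale. Markers of other cell types of the tissue were counted at 12 h beside the same shares of all tested genes, 7.9% fallen and 13.3% risen. At 12 h 6 of 11 endothelial markers rose and 1 fell (median 0.70), 3 of 11 oligodendrocyte markers rose and 0 fell (median 0.71), and 2 of 10 astrocyte markers rose and 0 fell (median 0.09), Gfap by 2.99 ± 0.40. Of 10 neuron markers 1 rose and 0 fell (median 0). For lists this short, the neuron and astrocyte counts were near the shares of all tested genes. The part of all these cells in the values of the 10 genes was not tested.

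Of the transcription factors of microglia other than SALL1, 15 were tested: 0 fell and 3 rose at 12 h, and 2 fell and 4 rose at 48 h. Of all tested genes, 7.9% fell and 13.3% rose at 12 h, and 5.01% fell and 7.5% rose at 48 h. The 12 h counts were near these shares. Spi1 (PU.1) rose by 0.98 ± 0.30 at 12 h (adjusted p = 0.037) and by 1.53 ± 0.30 at 48 h (adjusted p = 0.0066), and Irf8 rose by 0.48 ± 0.12 (adjusted p = 0.017) and 0.88 ± 0.12 (adjusted p = 0.00097). The immediate-early gene Egr1 rose by 1.94 ± 0.39 at 12 h (adjusted p = 0.0051).

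Around the receptors, the purinergic genes and the ligands were read as lists. Of 20 tested genes of nucleotide and adenosine signalling, 2 fell at 12 h (P2ry13 and the adenosine receptor Adora2a, -2.03 ± 0.51, adjusted p = 0.016) and 5 rose. Of all tested genes, 7.9% fell and 13.3% rose at that time. P2ry6, the UDP receptor linked to microglial phagocytosis, was not past the threshold at 12 h (0.56 ± 0.19, adjusted p = 0.061) and rose at 48 h (1.19 ± 0.19, adjusted p = 0.0022), when 1 of the list fell and 6 rose. Of 15 tested ligands and niche signals, 2 fell and 6 rose at 12 h, and 1 fell and 4 rose at 48 h. At 48 h 5.01% of all tested genes fell and 7.5% rose. The ligands of CSF1R went in opposite directions at 12 h. Il34, the neuronal ligand, fell from 29.1 ± 4.28 to 13.4 ± 0.627 FPKM (-1.06 ± 0.24, adjusted p = 0.0099), and Csf1 rose from 3.09 ± 0.426 to 16.6 ± 1.91 (2.11 ± 0.25, adjusted p = 0.00019). Tgfb1, whose protein sustains the homeostatic set, rose at 12 h (0.91 ± 0.12, adjusted p = 0.00046) and at 48 h (1.94 ± 0.12, adjusted p = 5e-06), while its receptor Tgfbr1 differed by 0.51 ± 0.23 at 12 h (adjusted p = 0.15). Cx3cl1, the ligand of CX3CR1, measured 195 ± 8.28 FPKM in controls and 185 ± 6.58 at 12 h (adjusted p = 0.79), and fell to 125 ± 16.5 at 48 h (-0.64 ± 0.15, adjusted p = 0.018), when Cx3cr1 was above control.

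**Figure D4:**
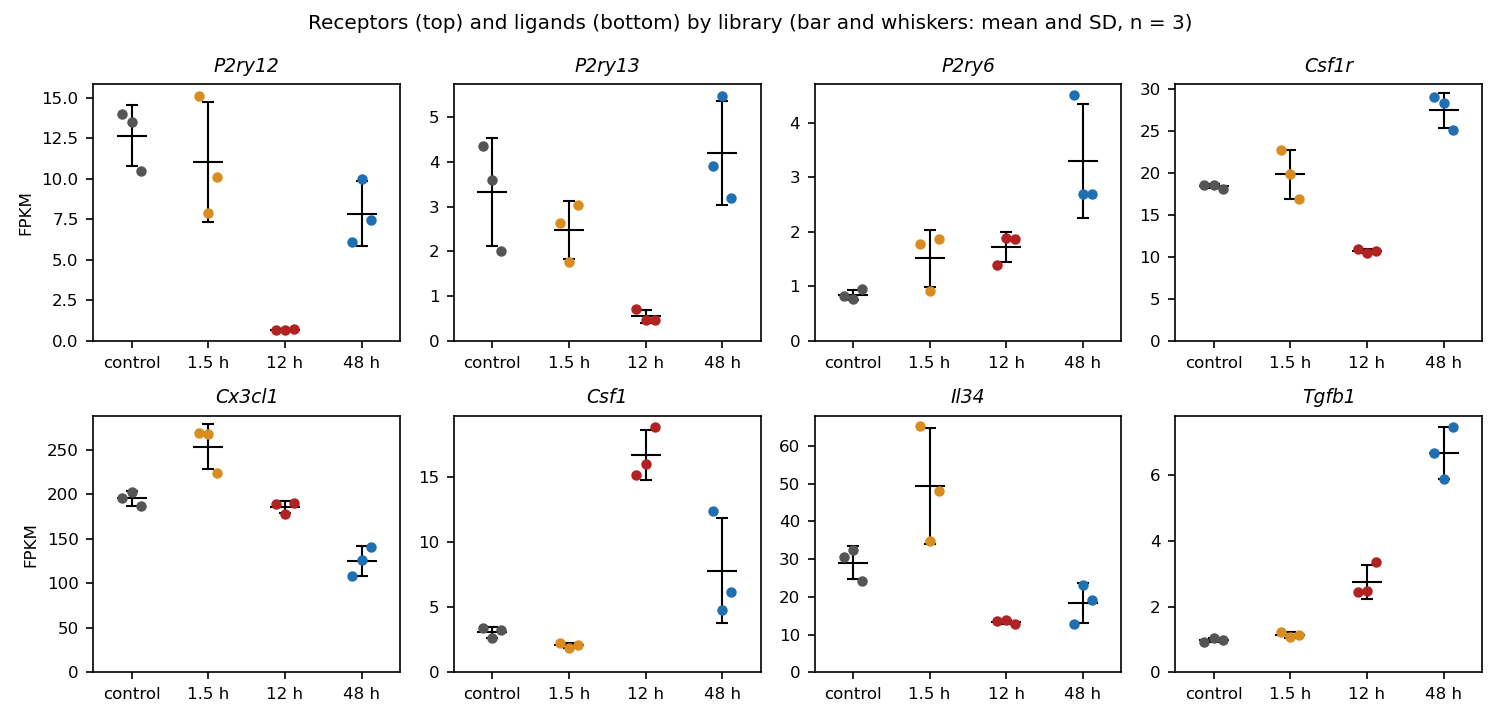
FPKM (vertical axes, each starting at 0) by group for the receptor genes P2ry12, P2ry13, P2ry6 and Csf1r (top) and the ligand genes Cx3cl1, Csf1, Il34 and Tgfb1 (bottom). Points are libraries, and the bar and whiskers are the mean and SD of 3. P2ry12, P2ry13 and Csf1r are lowest at 12 h, when Csf1 is highest.

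The course of P2ry12 was compared with that of every gene averaging at least 1 FPKM, 13714 in all, by the root mean square difference of their control-centred log2 values over the 12 libraries. Selplg was the most alike of all (0.65), and Tmem119 ranked 5 (0.77) and Gpr34 43 (0.99). The ranks of the other members were 142 for Siglech, 1698 for Sall1, 2221 for Cx3cr1, 2570 for Crybb1, 11796 for Olfml3 and 13392 for Fcrls. The 8 genes outside the list that were most alike were Itm2a (0.66), Dact2 (0.70), Tmem121b (0.75), Scarna17 (0.79), Gmpr (0.80), Htr1a (0.80), Dbp (0.80) and Lrrn3 (0.82). Among them Itm2a went from 22.8 FPKM in controls to 5.14 at 12 h and 16.8 at 48 h, and Htr1a, a serotonin receptor gene of neurons, from 5.16 to 1.17 and 2.36. Dbp, a clock output gene that varies with the time of day, which the labels do not give, went from 36.2 to 7.49 and 10.2. The measure rewards a deep low at 12 h, and genes on it need not be microglial.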

How the data were processed

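Brain RNA of mice was measured by sequencing, 3 libraries per group. The authors deposited a single table of FPKM values per gene with gene length and position, per the file headers. The submitters' processing notes name Bowtie 0.12.2 and the build mm8, but the positions of all 10 members equal those of GENCODE M21 on GRCm38, which is used here. The counter, its use of strand and the annotation are not given in the sources used here. FPKM times length was a whole multiple of a step for 100% of values within 0.05, which gave the recovered reads. These depths limit precision most at 12 h.

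Groups came from the labels. A 12 h column whose number matches no title was kept in its group as the unnumbered library. All 12 FPKM columns were mapped and 0 were left over. Replicate numbers were not used to pair samples in the fit reported.

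The test was limma 3.58.1 (R 4.3.3) on log2(FPKM + 1) of genes above 0.5 FPKM in 3 or more libraries. It used the mean-variance trend and 1 fit of 4 groups, with residual df of 8 and prior df of 3.09. Benjamini-Hochberg adjustment ran over all 17664 genes tested. The fit was tested on simulated data. The members and gene lists were chosen with earlier results of these data known, and lists are described by counts and medians only. All members are named. From each list up to 2 genes per direction with the smallest p at 12 h or 48 h and a mean of at least 1 FPKM are named, with a set of fixed genes and the 8 genes most like P2ry12. Some genes that the rule names are left out of the text. Genes listed as the changed ones of a count, and markers given by range, level or change, may fall outside that rule. They were chosen after their values were seen. Alternatives were another pseudocount, other filters, quantile normalization, length correction, no trend, 2-group fits, a replicate block and leaving out libraries.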

Additional observations from a re-analysis of the deposited data

Results flagged for a closer look

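Each result here is a difference between 2 treated times that limma's contrast of those times tested and found past the FDR of 0.05. Values are log2 differences on the log2(FPKM + 1) scale, later time minus earlier time, and no cause was tested.

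From 1.5 h to 12 h the nucleotide receptor gene P2ry12 differed by -2.79 and the crystallin gene Crybb1 by -2.78. Tmem119 differed by -2.38, Selplg by -2.25, Gpr34 by -1.67, Siglech by -1.14 and Olfml3 by -0.74. From 12 h to 48 h Olfml3 differed by 2.5, Tmem119 by 2.40, P2ry12 by 2.36, Gpr34 by 2.36, Fcrls by 1.68, Selplg by 1.55, Cx3cr1 by 1.54 and Sall1 by 0.70. From 1.5 h to 48 h Olfml3 differed by 1.76, Fcrls by 1.63, Cx3cr1 by 1.19, Sall1 by 0.80, Siglech by -0.90 and Crybb1 by -2.26. Crybb1 and Siglech were thus the members that fell from 1.5 h to 48 h, and the values of 1.5 h replicates 1 and 3, which stood apart, enter each of the contrasts with 1.5 h.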

How the results depend on the processing

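Over 15 alternatives for each of 60 member contrasts, 808 of 900 values kept sign and side of the threshold, 17 changed sign without being past the threshold, 49 lost a call, 25 gained one and 1 changed sign and passed. The changed signs were in 6 contrasts: at 1.5 h against control Gpr34 (-0.36 to 0.24), Selplg (-0.27 to 0.66) and Tmem119 (-0.12 to 0.59), from 1.5 h to 12 h Fcrls (-0.45 to 0.75) and Sall1 (-0.18 to 0.24), and from 1.5 h to 48 h Tmem119 (-0.22 to 0.49). Of 34 member contrasts past the threshold, 22 passed under every alternative. The count of members past the threshold at 1.5 h against control was 1 in the fit reported and 0 with no filter on low values, when the fit held only the 2 groups compared, with a replicate block and with 1.5 h libraries 1 and 3 left out, and it ran from 0 to 7 when single libraries were left out. At 12 h against control it was 9, where 7.9% of all tested genes fell. It was 5 with the replicate block (1.51% fell) and 5 to 7 when single libraries were left out (3.64% to 4.72% fell). At 48 h against control it was 3, 5 after quantile normalization and 7 with 1.5 h libraries 1 and 3 left out. After quantile normalization 7.03% of all tested genes fell and 8.17% rose at 48 h against control. From 12 h to 48 h the count of members was 8, where 5.88% of all tested genes rose, and 5 with the replicate block (0.77% rose). From 1.5 h to 48 h it was 6, where 8.87% of all tested genes fell and 8.91% rose. It was 3 when the fit held only the 2 groups compared (1.02% fell, 2.15% rose). Fcrls from 1.5 h to 12 h reversed to 0.75 with 1.5 h libraries 1 and 3 left out, a setting in which a single 1.5 h library remains and its spread is taken from the other groups. The pan myeloid count at 12 h was 12, 3 with the replicate block and 6 to 8 when single libraries were left out. In the same fits 13.3%, 5.97% and 8.39% to 10% of all tested genes rose. The pan myeloid alternatives were chosen after seeing the data. The labels do not say whether same-numbered libraries were paired. Deviations from group means correlated between -0.26 and 0.16 over 11 same-numbered pairs, 3 of them above 0.1, which cannot settle it. Why calls were lost under the block was not tested. Leaving out 1 library leaves 2 in its group. The cause of these shifts was not tested.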
